A study of Mus musculus with 41 samples.

Results

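The monocyte-attracting CC chemokines Ccl2, Ccl7, Ccl8, Ccl12, Ccl3, Ccl4, Ccl6 and Ccl9 were followed in lung and liver RNA of mice that inhaled titanium dioxide nanoparticles. The members were found by gene name on the mRNA arrays, which gave 8 genes with 9 probes and 18 spots, out of 27962 gene names, 41174 probes and 43379 spots that were not controls. All 8 had a value in every group. The genes were chosen from the lung comparison of exposed with control mice, so that comparison is given below as a description with no p-value for the members. Exposure in the liver and the contrast of control lung with control liver were not used in choosing them and were tested.

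CC chemokines are small secreted proteins with paired cysteines near the start of the mature chain, and they draw leukocytes along a gradient through receptors with a serpentine fold. The monocyte chemoattractant proteins (MCP) Ccl2, Ccl7 and Ccl12 are ligands of Ccr2, the receptor that lets blood monocytes leave the bone marrow and enter inflamed tissue, and Ccl8 belongs to the same group. Ccl3 and Ccl4 are the macrophage inflammatory proteins 1 alpha and 1 beta, and Ccl3 acts on Ccr1, as do the rodent chemokines Ccl6 and Ccl9. In the lung such ligands are made by alveolar macrophages and epithelial cells, and particles taken up by these cells are a known stimulus.

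All animals were female C57BL/6 mice (C57BL/6BomTac in the study's methods) from a mating study that had not conceived, and their age was labelled only as equivalent to GD4. Exposed mice breathed nanoTiO2 at a labelled 40 mg/m3 in whole-body chambers for 1 hr per day on 11 consecutive days, control mice breathed filtered air on the same schedule, and all were killed 5 days after the last exposure. The particle was a coated rutile, so that the particle core and its coating cannot be told apart. Lung RNA came from 7 exposed and 6 control mice and liver RNA from 7 exposed and 8 control mice, with 1 mouse per array, taken from a part of each organ. On each array the RNA of the mouse carried Cy5 and the same commercial RNA pool of mouse cell lines carried Cy3, without a dye swap. Every value below is the log2 ratio of mouse over reference RNA unless a channel is named. A value can therefore be compared for 1 probe between samples, not between probes. In these pieces of whole organ, more RNA per cell and more cells of one type cannot be told apart.

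Between 55.1 and 70.5% of the spots of an array were well above background in Cy5, with group medians of 66.3% in exposed lung, 62.9% in control lung, 63.6% in exposed liver and 61.3% in control liver. The tissue labels fitted their markers: the mean log2 ratio over 9 lung markers was 3.84 to 4.71 on lung arrays and -0.16 to 0.17 on liver arrays. Over 9 liver markers it was 5.65 to 6.66 on liver arrays. On lung arrays it was 0.67 to 2.50 in exposed and 0.40 to 1.22 in control mice, and these 9 genes were each higher in exposed lungs without passing the test. Lung slide 4 held 2 exposed mice and no control, and exposed arrays took positions 1 and 2 of a slide and controls positions 3 and 4, which ties exposure to position, and these cannot be told apart. Lung and liver were run on separate slides and read by different scanner software versions, so that tissue and run cannot be told apart either.

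The probes of the MCP genes lay within chr11:82118723-82198240 and those of the other 4 within chr11:83644626-83734514 on build mm7, the build in the lung files. Ccl2 was carried by 10 spots of 1 probe per array, Ccl7 by 2 probes, and the others by 1 spot each. The longest run of bases shared by probes of different members was 13, between Ccl8 and Ccl12, out of a probe length of 60.

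In exposed lungs all 8 genes had a higher mean than in control lungs, by 1.16-fold for Ccl4 to 2.14-fold for Ccl7. The median difference of the 8 was 0.77 on the log2 scale, against 0 over all 41155 probes tested, of which the central 90% lay between -0.12 and 0.15. Every exposed mouse was above every control mouse for 4 of the 8 genes, Ccl2, Ccl7, Ccl12 and Ccl9, as was the case for 0.364% of all probes. In the limma fit over all probes 0.18% were past the threshold of 0.05 after Benjamini-Hochberg adjustment in the higher direction, these 4 genes among them. The genes were picked on this contrast, so neither count is a test of them and nothing is read from it.

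**Figure D1:**
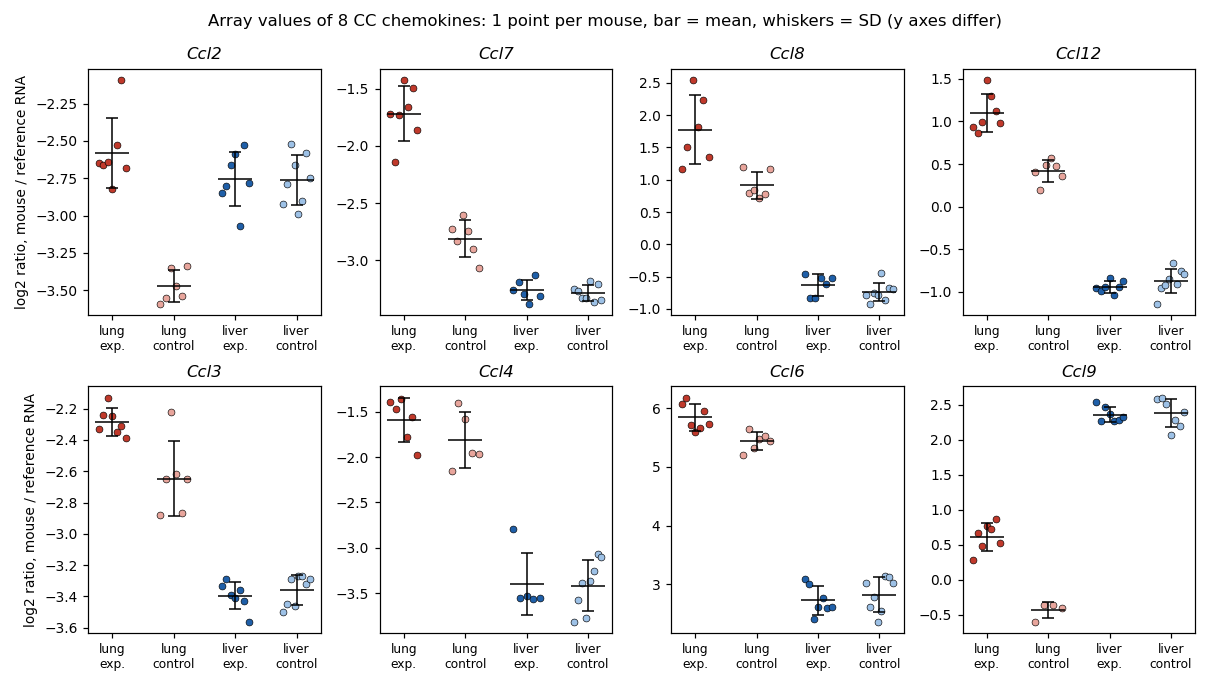
Log2 ratio of mouse over reference RNA for each of the 8 genes (y axes, which differ between panels) in exposed and control lung and liver (x axis), with 1 point per mouse, the mean as a bar and the SD as whiskers. For Ccl2, Ccl7, Ccl12 and Ccl9 the exposed lungs lie above all control lungs, while the exposed and control livers overlap for each gene.

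Ccl2, or MCP-1, is the chief ligand of Ccr2. In control lungs it ranged from -3.59 to -3.34 with a median of -3.50, and in exposed lungs from -2.82 to -2.09 with a median of -2.65. The lowest exposed mouse was thus above the highest control mouse. The mean of exposed lungs was -2.58 ± 0.23 (SD, n = 7) and that of control lungs -3.47 ± 0.11 (SD, n = 6), a difference of 0.90 (95% interval 0.70 to 1.09), or 1.86-fold. Exposed mouse 13 stood at -2.09, well above the next exposed mouse at -2.53, and without it the difference was 0.81. The 10 spots of the probe within an array had an SD of 0.07 to 0.19 on exposed and 0.07 to 0.15 on control lung arrays.

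Ccl7, or MCP-3, had the largest difference of the 8 in the array ratios. Control lungs ranged from -3.07 to -2.60 with a median of -2.79, and exposed lungs from -2.14 to -1.42 with a median of -1.72. The groups did not overlap. The mean rose from -2.81 ± 0.16 (SD, n = 6) to -1.72 ± 0.24 (SD, n = 7), a difference of 1.09 (95% interval 0.87 to 1.32). The Cy5 signal of this probe was low in control lungs, 100 to 170 before background subtraction. Its difference ranged from 1.04 to 1.81 over the processing alternatives given below. The second Ccl7 probe, which lies upstream of the first in the same transcript, gave 1.06 (95% interval 0.87 to 1.25), again without overlap.

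Ccl12, or MCP-5, is a mouse ligand of Ccr2 with no simple human counterpart. It ranged from 0.19 to 0.57 in control lungs, median 0.44, and from 0.86 to 1.49 in exposed lungs, median 0.99. The groups did not overlap, and the difference was 0.68 (95% interval 0.48 to 0.88), or 1.60-fold. Its neighbour Ccl8, or MCP-2, ranged from 0.71 to 1.19 in control lungs, median 0.81, and from 1.17 to 2.55 in exposed lungs, median 1.66 over the 6 exposed mice with a usable spot. One exposed mouse, number 1 at 1.17, lay just inside the control range and the other 5 lay above it. The difference was 0.86 (95% interval 0.43 to 1.30), or 1.82-fold, with an SD of 0.53 in exposed against 0.21 in control lungs. Exposed mouse 20 was highest for both genes, at 2.55 for Ccl8 and 1.49 for Ccl12, and without it the differences were 0.71 and 0.61. The mice of slide 4, which had no control, stood at 2.55 and 1.81 for Ccl8, and with slide as a block the Ccl8 difference was 0.59 and that of Ccl12 was 0.57.

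After subtraction of the group means, the neighbours Ccl8 and Ccl12 correlated at 0.63 over 12 lung arrays. Exposed mice 20 and 23 of slide 4, which had no control, also had the highest Ccl12 values, 1.49 and 1.30. The part of the slide in this correlation was not tested. For this pair the stretches of 250 bases before the start sites are shown. They come from RefSeq on GRCm38.p6, written 5′ to 3′ in the direction of the gene, Ccl8 from chr11:82114935-82115184 and Ccl12 from chr11:82101595-82101844, both on the plus strand. Capitals mark TATAAA, searched on the gene's own strand.
Ccl8: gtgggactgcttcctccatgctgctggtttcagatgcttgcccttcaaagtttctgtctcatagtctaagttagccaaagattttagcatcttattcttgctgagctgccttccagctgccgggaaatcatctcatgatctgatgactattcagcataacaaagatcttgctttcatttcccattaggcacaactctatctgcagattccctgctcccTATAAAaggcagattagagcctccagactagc
Ccl12: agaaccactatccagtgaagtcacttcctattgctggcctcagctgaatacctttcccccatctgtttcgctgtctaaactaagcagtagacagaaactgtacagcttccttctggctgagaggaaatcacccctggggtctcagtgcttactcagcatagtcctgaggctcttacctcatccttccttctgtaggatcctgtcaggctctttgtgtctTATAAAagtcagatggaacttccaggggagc
The motif began 32 bases before the start of Ccl8 and 31 bases before that of Ccl12, and 7.59% of 32851 promoter stretches of this length held it anywhere. Neither stretch held the AP-1 motif TGANTCA or the NF-kB consensus, each searched on both strands.

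Ccl9, or MIP-1 gamma, ranged from 0.28 to 0.87 in exposed lungs with a median of 0.66. The 4 control mice with a usable spot stood at -0.60, -0.40, -0.36 and -0.36, since the spots of control mice 26 and 34 were marked by the scanner software. All exposed mice were above all 4 controls, and the difference was 1.04 (95% interval 0.83 to 1.25), or 2.05-fold. With those spots kept, a setting added after the data were seen, it was 0.98. The gene was higher in control liver than in control lung, and the liver markers were higher in exposed lungs, so their levels are set beside it. Exposed mice 1, 19 and 13 had the highest mean liver marker levels, 2.50, 1.95 and 1.77, with Ccl9 at 0.28, 0.52 and 0.87, the lowest, the third lowest and the highest of the exposed lungs. Exposed mice 23, 7, 20 and 12 had marker levels of 1.16, 1.05, 0.76 and 0.67, within the control range, and Ccl9 values of 0.72, 0.66, 0.76 and 0.48, above every control. The part of liver RNA in the Ccl9 difference was not tested.

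The 250 bases before the start of Ccl9 are given because this was the member with matches to all 3 motifs searched. They are chr11:83578637-83578886 on the minus strand of GRCm38.p6 (RefSeq), written 5′ to 3′ along the gene, with all matches in capitals.
Ccl9: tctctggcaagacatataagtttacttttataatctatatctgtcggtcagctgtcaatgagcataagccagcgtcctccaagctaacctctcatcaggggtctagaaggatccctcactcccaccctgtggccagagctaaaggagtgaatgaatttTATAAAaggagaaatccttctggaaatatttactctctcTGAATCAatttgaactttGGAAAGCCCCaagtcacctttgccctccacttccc
From left to right the capitals are TATAAA beginning 92 bases before the start, a match to the AP-1 motif TGANTCA beginning 53 bases before it, where the pattern, with its open middle base, matches on both strands, and an NF-kB consensus match on the opposite strand beginning 35 bases before it. Over all promoter stretches 6.75% held the AP-1 motif and 7.25% the NF-kB consensus. The stretches of Ccl3 and Ccl6 held none of the 3, and a match or its absence describes the letters only. Ccl2, Ccl7 and Ccl4 were not among the sequences used.

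Ccl3 and Ccl4 differed least. Ccl3 ranged from -2.88 to -2.22 in control lungs, median -2.65, and from -2.39 to -2.13 in exposed lungs, median -2.31. The groups overlapped through control mouse 27 at -2.22, and the difference was 0.37 (95% interval 0.18 to 0.55). Ccl4 stood at -2.15, -1.97, -1.96, -1.58 and -1.40 in the 5 control lungs with a usable spot and ranged from -1.98 to -1.36 in 6 exposed lungs, median -1.52. The exposed values spanned most of the control range, and the 95% interval of the difference of 0.22 reached from -0.09 to 0.53.

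Ccl6, also called C10, ranged from 5.20 to 5.64 in control lungs, median 5.46, and from 5.60 to 6.18 in exposed lungs, median 5.73. One exposed mouse, number 20 at 5.60, fell inside the control range, and the difference of the ratios was 0.41 (95% interval 0.20 to 0.62), or 1.33-fold. The 2 channels of this probe both differed between the groups, which sets it apart from the other 7 genes. After quantile normalization of each channel between arrays, the Cy5 signal, from the RNA of the mouse, had a mean of 14.77 ± 0.20 (SD, n = 7) on the log2 scale in exposed lungs and of 13.49 ± 0.23 (SD, n = 6) in control lungs, a difference of 1.28 (95% interval 1.05 to 1.51), or 2.43-fold. The Cy3 signal, from the reference RNA that was the same on every array, was 8.41 ± 0.24 in exposed and 7.63 ± 0.17 in control lungs, a difference of 0.79 (95% interval 0.57 to 1.00). Neither channel overlapped between the groups, and no lung array was saturated at this probe. The ratio thus gave a smaller difference than Cy5 alone. For the other 7 genes the Cy3 difference in the lung lay between -0.06 and 0.03, and their Cy5 differences, from 0.19 for Ccl4 to 1.04 for Ccl7, were within 0.10 of the ratios. In the liver the Cy3 difference of all 9 probes lay between -0.06 and 0.06.

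**Figure D2:**
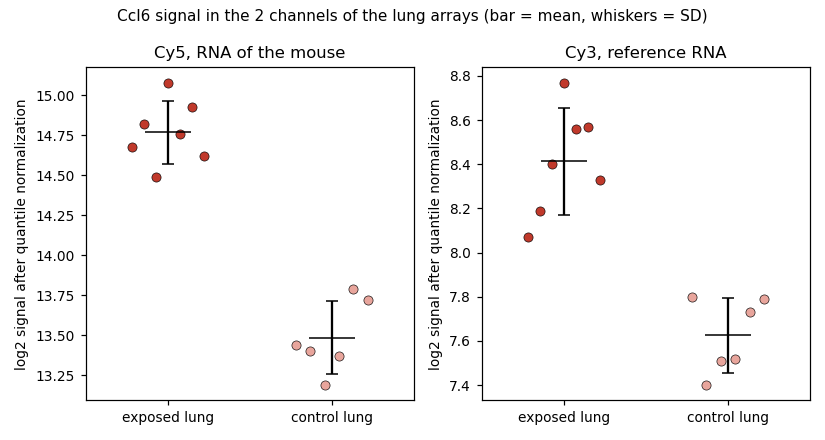
Log2 signal of the Ccl6 probe after quantile normalization (y axes, which differ) in exposed and control lungs (x axis), for Cy5 on the left and Cy3 on the right, with 1 point per mouse, the mean as a bar and the SD as whiskers. Exposed lungs lie above control lungs in Cy5, by 1.28 in the mean, and also in Cy3, which carried the same reference RNA on every array, by 0.79.

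Within single slides that held both groups the lung difference was above 0 in all 22 comparisons of a gene on a slide. It ranged from 0.77 to 1.06 for Ccl2, from 0.85 to 1.31 for Ccl7, from 0.46 to 0.63 for Ccl12 and from 0.84 to 1.09 for Ccl9, each over 3 slides. Ccl8 gave 0.35 and 0.83 on the 2 slides where both groups had a value, and Ccl6 0.31 to 0.71. These comparisons share the members' selection and are a description of how even the difference was across slides.

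**Figure D3:**
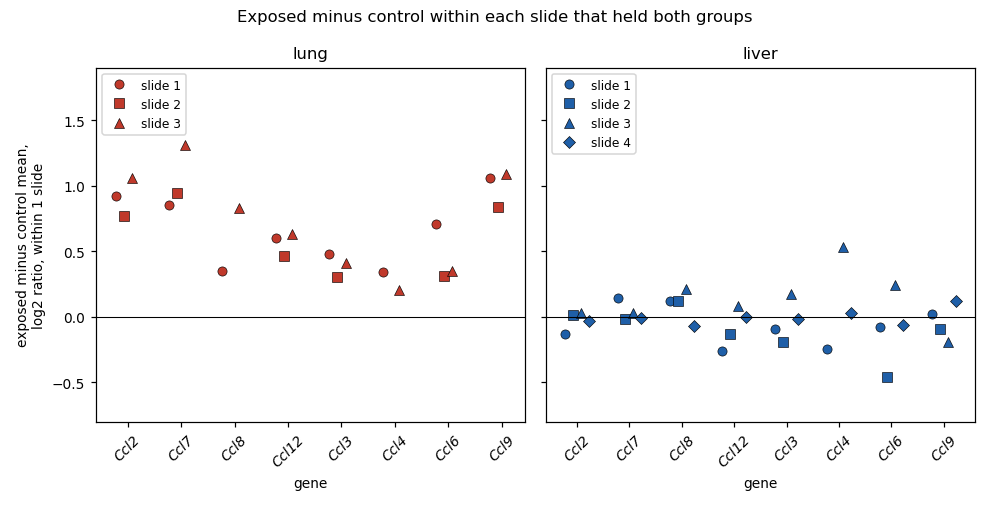
Exposed minus control mean log2 ratio (y axis) of each gene (x axis) within each slide that held both groups, lung on the left and liver on the right, with 1 symbol per slide. In the lung all 22 values are above 0, and in the liver 14 of 31 are.

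Exposed lungs did not rank the same way for each gene. Mouse 20 was highest for 4 of the 8 genes, mouse 13 for 2, and mice 7 and 12 for 1 each, while mouse 19 was never among the top 2. After subtraction of the group means, the 28 pairs of genes had Pearson correlations of -0.64 to 0.68 over the lung arrays, with a median of 0.20. The highest was between Ccl7 and Ccl12, at 0.68 over 13 arrays, followed by Ccl8 with Ccl12, at 0.63 over 12. Ccl3 and Ccl4 gave 0.56 over 11 arrays, and Ccl6 with Ccl12 the lowest. The Ccl6 ranks and correlations are those of its ratio, whose Cy3 signal also differed. Exposed mouse 20, lowest of its group in the Ccl6 ratio at 5.60, was highest in Cy5 (15.08) and in Cy3 (8.77). How Ccl6 correlates in Cy5 alone was not tested. The correlations of all pairs share arrays and their normalization and are a description. Among 11801 other gene names well above background on all lung arrays, the pattern most like that of Ccl2 belonged to Gpd2 (r = 0.90), Impa2 and Pde6h (both 0.89). The pattern most like that of Ccl7 belonged to Slc35f5 (0.85), N28178 (0.82) and Ikbke (0.80). For Ccl12 they were Yipf6 (0.87), Slc39a13 and Glrx5 (both 0.86), and for Ccl8 Als2cr2 (0.86) and Rab22a (0.84). For Ccl9 they were Ttc15 (0.93), Lpp (0.92) and Fastkd1 (0.91), and for Ccl6 Pcolce2 (0.89), D9Ertd280e (0.88) and Flt1 (0.87). For Ccl3 they were Tpte2 (0.93), Clstn2 (0.91) and Cdk7 (0.89), and for Ccl4 Ifng (0.95), Cited2 (0.94) and 2010106G01Rik (0.92). With 11 to 13 arrays and so many genes searched, correlations of this size say little about any 1 of them.

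In the liver none of the 8 genes differed between exposed and control mice beyond the spread of the mice. The differences ran from -0.09 for Ccl6 to 0.11 for Ccl8, with a median of 0, 4 of them above and 4 below 0. None passed the limma test with Benjamini-Hochberg adjustment, and 0% of the 41143 probes tested did. At an unadjusted p under 0.05, limma gave 1040 probes and none of the 9 member probes, whose lowest unadjusted p was 0.19. Ccl2 ranged from -3.07 to -2.53 in exposed livers, median -2.78, and from -2.99 to -2.52 in control livers, median -2.77. The 2 ranges lay on top of each other, and the difference of 0.01 had a 95% interval of -0.17 to 0.19 (exact 2-sided permutation p = 0.914). Ccl7 ranged from -3.38 to -3.13 in 6 exposed livers and from -3.37 to -3.18 in control livers, a difference of 0.03 with an interval of -0.08 to 0.13 (exact permutation p = 0.555). Ccl9 ranged from 2.26 to 2.54 in exposed and from 2.07 to 2.60 in control livers, a difference of -0.02 with an interval of -0.19 to 0.15 (exact permutation p = 0.828).

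Ccl12 ranged from -1.04 to -0.84 in exposed and from -1.14 to -0.66 in control livers, a difference of -0.07 with an interval of -0.19 to 0.06 (exact permutation p = 0.293). Ccl8 ranged from -0.84 to -0.46 in exposed and from -0.92 to -0.44 in control livers, a difference of 0.11 with an interval of -0.06 to 0.28 (exact permutation p = 0.215). Both were near background in this tissue, with Cy5 well above background on 3 of 7 exposed and 4 of 8 control arrays. The other 6 genes were flagged well above it on every array. Of these, the first Ccl7 probe had the lowest Cy5 signals before background subtraction, 118 to 146 on exposed and 100 to 138 on control liver arrays. Those of Ccl12 were 89 to 121 and 89 to 116. Ccl3 had an interval of -0.15 to 0.07 and Ccl6 one of -0.36 to 0.17. Ccl4 stood at -3.56, -3.55, -3.55, -3.53 and -2.79 in the 5 exposed livers with a usable spot and ranged from -3.81 to -3.07 in control livers. The last of these values, from mouse 13, was above every control, and the interval of the difference was wide, -0.31 to 0.35. Within slides 14 of 31 liver values were above 0 and 16 below.

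**Figure D4:**
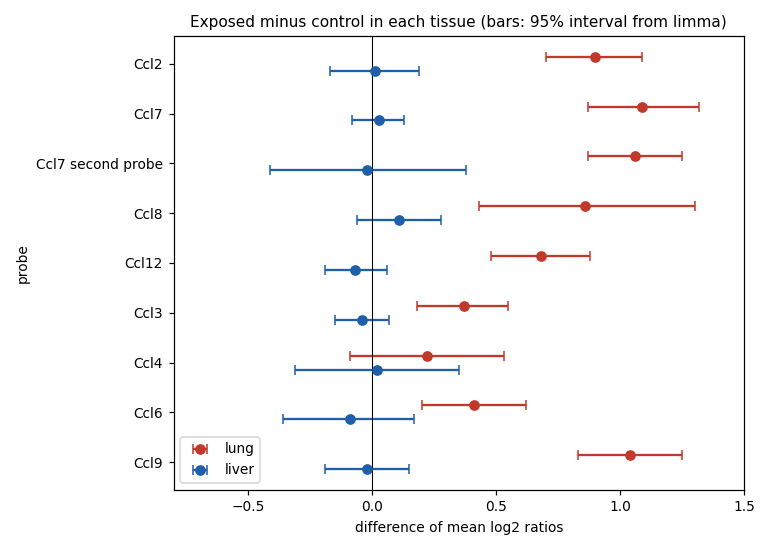
Difference of mean log2 ratios, exposed minus control (x axis), for each of the 9 probes (y axis) in lung and liver, with the 95% interval from limma as bars. The lung intervals lie above 0 for all probes but that of Ccl4, and each liver interval includes 0. The lung values chose the genes and are shown as a description.

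The difference between the lung and liver exposure effects was not tested, since the lung effect chose the genes. At the level of single genes, the order of the 4 groups differed. Ccl9 was lowest in control lung (-0.43 ± 0.11, n = 4), higher in exposed lung (0.61 ± 0.20, n = 7), and highest in liver, where control (2.37 ± 0.20, n = 7) and exposed (2.36 ± 0.11, n = 7) did not differ beyond their spread. Ccl2 was likewise lowest in control lung, and its exposed lungs (-2.58 ± 0.23) overlapped with exposed livers (-2.75 ± 0.18, n = 7) and control livers (-2.76 ± 0.17, n = 8). The other 6 genes, Ccl7 by its first probe, were highest in exposed lung, followed by control lung, with both liver groups lowest. In that order Ccl3 and Ccl4 overlapped between exposed and control lung, and Ccl8 and Ccl6 did so by 1 exposed mouse each.

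Between control tissues all 8 genes passed the test, with the probes of Ccl7 on opposite sides. Control lung and control liver, both from mice that breathed filtered air, were compared for the level of each chemokine without exposure, and the control lungs are those of the exposure comparison. Of all 41149 probes tested, 29.3% passed the limma test higher in lung and 28.5% lower in lung, so that a call by itself sets no gene apart here and the sizes are of more use. With Benjamini-Hochberg adjustment 6 of the 8 genes, Ccl7 by its first probe among them, were called higher in lung and 2 lower. The median difference of the 8 was 1.00, against -0.02 over all probes.

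Ccl6 was higher in lung. Control lungs ranged from 5.20 to 5.64 and control livers from 2.37 to 3.15, a difference of 2.61 (95% interval 2.36 to 2.86), or 6.10-fold (adjusted p = 3.3e-12 from limma). The groups were far apart, and here too the Cy3 signal of the probe differed, at 7.63 ± 0.17 in control lungs and 6.35 ± 0.12 in control livers. The Cy5 signal, from the RNA of the mouse, was 13.49 ± 0.23 in control lungs and 9.37 ± 0.32 in control livers, further apart than the ratios. On the scanner software's processed signals the Ccl6 difference was 1.49. Ccl4 was 3.04-fold higher in lung (difference 1.60, 95% interval 1.29 to 1.92) and Ccl3 1.63-fold (0.71, interval 0.53 to 0.89). Ccl8 had a difference of 1.65 (95% interval 1.46 to 1.84) and Ccl12 of 1.29 (interval 1.14 to 1.45), but in liver both were well above background on only 4 of 8 control arrays. The size of these differences depended on the background treatment, from 1.36 with the background fitted on all spots to 3.90 on processed signals for Ccl8 and from 1.02 to 3.55 for Ccl12. For each of these genes every control lung was above every control liver. The exact permutation p was 0.000333 for Ccl6, Ccl8, Ccl12 and Ccl3, the smallest that 6 against 8 arrays can give, and 0.000777 for Ccl4, the smallest for 5 against 8.

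Ccl9 and Ccl2 went the other way. Ccl9 was 6.97-fold higher in control liver, with livers from 2.07 to 2.60 and the 4 usable lungs from -0.60 to -0.36, a difference of -2.80 (95% interval -3.02 to -2.58, adjusted p = 9e-12 from limma, exact permutation p = 0.00303 with 4 against 7). Ccl2 ranged from -3.59 to -3.34 in lung and from -2.99 to -2.52 in liver, again without overlap, a difference of -0.71 (95% interval -0.87 to -0.55, exact permutation p = 0.000333). The Ccl7 probes disagreed: the first gave 0.47 higher in lung (95% interval 0.34 to 0.61) and the second -0.45 (interval -0.74 to -0.17), both called. The second varied more in liver, from -2.74 to -1.88 in control livers against -3.37 to -3.18 for the first. Its highest control livers, mice 27 and 29 at -2.01 and -1.88, were both on slide 2. No direction is therefore given for Ccl7, and with 1 value per gene its difference was 0.01 and was not called.

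**Figure D5:**
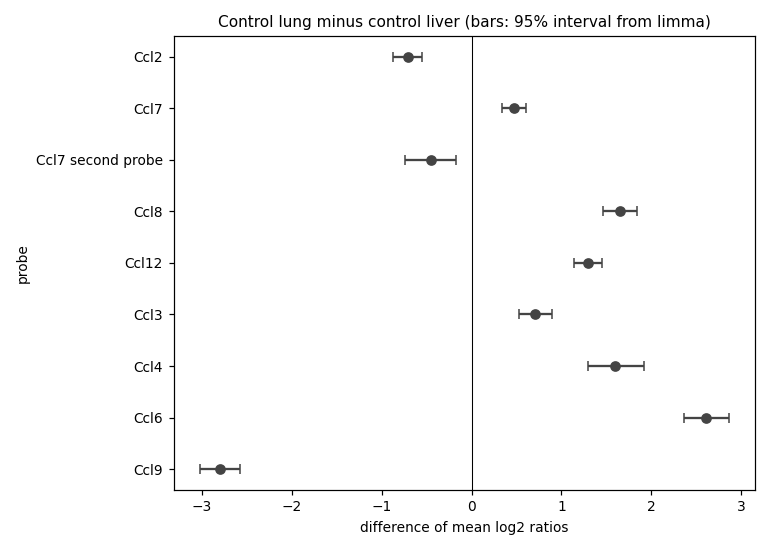
Difference of mean log2 ratios, control lung minus control liver (x axis), for each of the 9 probes (y axis), with the 95% interval from limma as bars. Ccl6, Ccl8, Ccl4, Ccl12 and Ccl3 lie above 0, Ccl2 and Ccl9 below it, and the Ccl7 probes on opposite sides.

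None of 9 receptor genes passed the limma test in exposed lung, with a median difference of 0.01. Ccr2 gave -0.10 (95% interval -0.34 to 0.13), and Ccr1 was not well above background on any lung array. In the liver none passed, and Ccbp2, a scavenging receptor, had the largest difference, -0.22. Between control tissues 4 receptor genes were called higher in lung and 2 lower, against 29.3% and 28.5% of all probes. The largest differences were those of the atypical receptor Ccrl2 (2.88), Ccbp2 (2.65) and Ccr2 (2.26), and Ccr2 was well above background on all 6 control lung and 3 of 8 control liver arrays.

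Of 12 other CC ligands, 2 were called higher in exposed lung and none lower, against 0.18% and 0.0219% of all probes, with a median of 0.02. Ccl17, a ligand of Ccr4, rose from 1.89 to 2.79, a difference of 0.89 (95% interval 0.57 to 1.22, adjusted p = 0.021 from limma), and Ccl19, a ligand of Ccr7 on dendritic cells and T cells, rose from 3.56 to 4.04, a difference of 0.47 (interval 0.31 to 0.64, adjusted p = 0.015). In the liver none of the 12 passed, and the largest difference was that of Ccl19, -0.13. Between control tissues 5 were higher in lung (29.3% of all probes), led by Ccl17 (2.81), Ccl21c (2.32) and Ccl5 (2.19), and 3 were lower (28.5%), led by Ccl24 (-1.61). Of 15 genes known to induce chemokines or to be induced with them, mostly cytokines and NF-kB genes, 2 were called higher in exposed lung. Over all probes the share was 0.18%, and the median of the 15 was 0.16, with 13 of 15 above 0. Csf2, the growth factor GM-CSF, rose by 0.91 (95% interval 0.70 to 1.11, adjusted p = 0.00032 from limma) and Tnfaip3, an inhibitor of NF-kB, by 0.40 (interval 0.24 to 0.55, adjusted p = 0.034). Tnf gave 0.26 with an adjusted p of 0.34, and Il1b -0.30 with one of 0.83. In the liver none of the 15 passed, and the largest difference was -0.24 for Il1b. Between control tissues 11 were higher in lung (29.3% of all probes), led by Icam1 (3.90), and 1 was lower (28.5%), Il6 (-0.77). Il6 was near background, with Cy5 well above it on 0 of 6 control lung and 4 of 8 control liver arrays.

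Cell type markers are given beside the ligands. Of 18 monocyte and macrophage markers, 2 were called higher in exposed lung and 1 lower, against 0.18% and 0.0219% of all probes, with a median difference of 0.10. Called or not, 14 of the 18 differences were above 0 and 3 below. The scavenger receptors Marco and Msr1 rose by 0.57 (95% interval 0.38 to 0.76, adjusted p = 0.0092 from limma) and 0.52 (interval 0.33 to 0.70, adjusted p = 0.02). Siglecf, found on resident alveolar macrophages and eosinophils, fell by 0.70 (adjusted p = 0.011 from limma). The mean of the 18 ranged from 1.15 to 1.48 in exposed and from 1.00 to 1.33 in control lungs. None of 13 neutrophil markers passed, with a median difference of -0.23 and 10 of 13 below 0, the largest being S100a8 at -0.88 (adjusted p = 0.70). Their mean ranged from 0.78 to 1.63 in exposed and from 1.05 to 1.58 in control lungs. None of 8 lymphocyte markers passed, with a median of 0 and Ms4a1 the largest at -0.18. In lavage fluid from mice of this exposure the study reports a larger share of neutrophils, a smaller share of macrophages and more lymphocytes. Those are counts of lavaged cells, whereas the markers here are RNA of pieces of lung, so the markers do not measure that change. None of the lung or liver markers passed, with medians of -0.10 and 0.55, the largest being Sftpc at -0.20 and Fgb at 1.14 (adjusted p = 0.70 from limma). The part of these markers in the chemokine differences was not tested.

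In the liver no marker passed in any of the 5 lists, and the largest differences were those of S100a9 (-0.96), Lyzs (-0.46), Alb1 (-0.36), Ms4a1 (-0.26) and Sftpd (-0.16). The median of the 18 monocyte and macrophage markers was -0.14. Between control tissues 10 of the 18 were higher in lung and 6 lower, against 29.3% and 28.5% of all probes. The largest differences were those of Clec4f, found on Kupffer cells (-5.35), the lysozyme gene Lyzs (4.28), Itgax (2.59), Ly6c (2.36) and Siglecf (2.11). Of 13 neutrophil markers 8 were higher in lung, led by S100a9 (2.83), and of 8 lymphocyte markers 5 were higher, led by Ms4a1 (3.39), and 2 lower. The 8 lung markers with a value were all higher in lung, led by Aqp5 (6.62), and all 9 liver markers lower, led by Cps1 (-8.88).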

How the data were processed

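The authors deposited, for each of 28 mRNA arrays, the scanner software's output with spot and local background intensities that are not normalized (version 9.5.3.1 for lung, 10.1.1.1 for liver), and a processed table of log2 ratios made by LOWESS. The log2 ratios of that table correlated at 0.929 to 0.994 with those of the median intensities. The 13 miRNA arrays hold no member and were not used.

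Computations used R (4.3.3) with the packages limma (3.58.1), statmod (1.5.0) and data.table (1.17.8). Spots marked by the scanner software in either channel (2.46 to 4.72% per array) were set to missing. The order matters: fitted on all spots, the normexp background model is pulled on some arrays by a few spots with a very bright surround, to a Cy5 mean of -609 on the array of exposed lung mouse 23. Median intensities minus local background were then corrected by normexp (offset 50) and normalized by loess within arrays, with control spots at weight 0, and a probe was given the mean of its spots. The comparisons were fitted by lmFit and eBayes, with Benjamini-Hochberg adjustment over all probes and a threshold of 0.05, and single members with an exact 2-sided permutation test over arrays. Intervals are 95% intervals from limma. The scripts were tested on simulated data.

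The members and gene lists were chosen with earlier results of these data known. All members and probes were named. Of each other list, genes past the test, at most 5 by size, were to be named, otherwise the gene with the largest difference. Between control tissues most lists name fewer called genes than that, those with the largest differences higher or lower in lung. For each member the 3 genes with the highest Pearson correlation over the lung arrays were named. Ccr2, Ccr1, Tnf and Il1b were named beside them as receptors and inducers of the members, after their values were seen. A receptor gene and a gene correlated with a member, named by the rule, are not reported here. The probe with the highest mean signal stands for a gene. Names are those of the array design. Of 8 members, 5 had a promoter among the RefSeq sequences.

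The study states that lungs and livers came from the same mice, but no source ties the numbers in the sample titles, used here as mouse numbers, to mice across tissues. On the miRNA arrays exposed numbers 12, 20 and 23 are labelled control. Labels and methods give 1 mouse per array. The number of arrays limits the precision.

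Alternatives were a background model fitted on all spots, median signals without background correction, the signals as processed by the scanner software, median centring, the authors' ratios, only probes well above background in Cy5 on 50% or more of a group's arrays, 1 value per gene symbol, slide as a fixed or random block, replicate number as a block, and each array left out in turn. Keeping spots with only a background flag was added after the data were seen.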

Additional observations from a re-analysis of the deposited data

Results flagged for a closer look

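Single values far from their group were searched for in 36 combinations of a probe and a group, where chance gives about 1 in 20, and 3 were found. Ccl2 in exposed lung mouse 13 was -2.09, with the next mouse at -2.53, and without it the exposed minus control difference was 0.81. Ccl4 in exposed liver mouse 13 was -2.79, with the next of 5 mice at -3.53, and without it the difference turned from 0.02 to -0.14 and was not called in either case. Ccl9 in control lung mouse 24 was -0.60, with the next of 4 mice at -0.40, and without it the difference was 0.98.

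The Cy3 channel of the lung arrays, which the comparisons use only within the ratio, held a difference for 1 member. The Ccl6 signal was higher by 0.79 (95% interval 0.57 to 1.00, adjusted p = 0.016 from limma) on exposed than on control arrays although both carried the same reference RNA, and 4 of 41155 probes were called in this channel. The Cy5 signal of the same probe was higher by 1.28. The exposed minus control difference of the ratio was 0.41, and 0.11 on the scanner software's processed signals. What moved the Cy3 signal was not tested.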

How the results depend on the processing

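In the lung the differences of all 9 probes stayed above 0 under each alternative and with each array left out. The count of probes called, 83, moved to 15 with the background fitted on all spots, to 4 with median centring and to 133 with slide as a random block, and ranged from 64 to 81 with 1 array left out. The genes were picked on this contrast, so the counts of members called are no test of them and nothing is read from them. The main fit called 4 members, with 83 of 41155 probes in all. With the background fitted on all spots it was 2 (Ccl2 and Ccl9), with 15 of 41172 probes. There Ccl7 (1.31) was lost while its second probe (1.32) was still called. On processed signals it was 5, with Ccl3 added and 73 of 41155 probes. With 1 array left out it was 4 or 5, and 5 without control mouse 27, with 68 of 41149 probes. Median centring gave 0, with 4 of 41155 probes. The differences of the 4 genes under median centring were larger (0.73 to 1.16), and the cause of the lost calls was not tested. Ccl6 fell to 0.14 with the background fitted on all spots and to 0.11 on processed signals, Ccl8 to 0.42 and Ccl12 to 0.37 with the background fitted on all spots, whereas on processed signals Ccl7 reached 1.81, its second probe 1.69, Ccl9 1.23 and Ccl12 0.87.

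In the liver no probe was called under any alternative or with any array left out. Differences near 0 changed sign in some settings without being called. With the background fitted on all spots Ccl2 gave -0.05, Ccl7 -0.66, Ccl8 -0.10, Ccl4 -0.57, Ccl6 0.60 and Ccl9 0.24, with adjusted p from limma of 0.52 to 0.77. With median centring the second Ccl7 probe gave 0.09, Ccl3 0.09, Ccl6 0.01 and Ccl9 0.13. Ccl7 gave 0 without background correction, Ccl3 0.05 on processed signals and Ccl9 0.01 with the authors' table. With only feature flags left out Ccl4 gave -0.02 and Ccl9 0.01, and with slide as a fixed or random block Ccl2 gave -0.02 and 0. With 1 array left out Ccl2 ranged from -0.03 to 0.06, Ccl7 from 0 to 0.05, its second probe from -0.13 to 0.07, Ccl4 from -0.14 to 0.07 and Ccl9 from -0.07 to 0.02.

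Between control tissues all members stayed called with any array left out, and the count over all probes ranged from 22850 to 23814. With the replicate number as a block over the 6 numbers with both tissues, all 8 members were called in the same direction, and 22427 probes in all. Whether a number marks 1 mouse in both tissues is not stated: deviations of same-numbered control arrays correlated at -0.04 to 0.18 over 14174 probes, and 4 of 6 lungs correlated best with their own number. With the background fitted on all spots 5 members were called, and 20134 of 41172 probes in all. There Ccl7 turned to -0.16, and Ccl7, Ccl3 (0.22) and Ccl4 (0.99) were no longer called. On processed signals Ccl8 rose to 3.90 and Ccl12 to 3.55 and Ccl6 fell to 1.49. With 1 value per gene Ccl7 gave 0.01. Members with marked spots rest on fewer mice, and Ccl8 and Ccl12 in liver on signals near background. The first Ccl7 probe was also dim in both control tissues, and its difference ranged from -0.16 to 0.80 over the alternatives.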
